A study of Oryzias latipes with 50 samples.

Results

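The 71 genes described here encode proteins that cut, join and escort messenger RNA: SR proteins, hnRNP proteins, RBM proteins, the SF3A and SF3B subunits of the spliceosome, CLK kinases and the cold-inducible RNA-binding protein Cirbp. They were chosen by name, from the genes that averaged 1 FPKM or more, where the symbol starts with srsf, hnrnp, rbm, sf3a, sf3b or clk and a digit, or is cirbp, or the product name is that of an SR splicing factor, an hnRNP or a CLK kinase. Of the 89 genes with such a name, 71 passed the minimum and 18 did not, among 16493 genes tested and 23455 in the table. The lowest genes inside the limit were rbm43 at 1.99 and rbm41 at 2.06 FPKM, and the highest outside it were rbm24 at 0.786 FPKM and a CLK2 copy, LOC101158555, at 0.755 FPKM. Another of the 18, sf3b4, averaged 0.579 FPKM and is listed at 0 in 24 of 50 libraries. By family there were 15 SR, 24 hnRNP, 21 RBM, 8 SF3A or SF3B, 2 CLK and 1 cirbp gene.

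Medaka (Oryzias latipes), a small egg-laying freshwater fish that breeds in long days, lived outdoors at 35.0°N, and a piece of brain holding the ventral telencephalon with the hypothalamus and pituitary was taken near 8 pm about once a month. RNA-seq gave 50 libraries, 2 from each of 25 dates from September 2015 to September 2017. The groups compared were 6 dates in June to August against 6 in December to February (mean computed day length 13.79 against 10.18 h), 7 dates in August to October against 6 in February to April (11.85 against 11.98 h), and 12 dates of the second year against the same 12 months of the first. Every group shared the tissue, the outdoor keeping and the clock time. With day length unlike at 1 clock time, the June to August and December to February dates differed in time from sunset. The part of this in the results was not tested. The labels give no strain, sex, age or water temperature, and do not say whether a library was 1 fish or a pool.

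Splicing removes introns from a primary transcript on the spliceosome, whose U2 particle carries SF3A and SF3B and marks the branch point. SR proteins bind exons and promote their use, hnRNP proteins often oppose them, and CLK kinases phosphorylate SR proteins and thereby release them to act. In mammalian cells mild cooling raises Cirbp, and CLK kinases are more active at lower body temperature. The body temperature of a fish follows the water, whose temperature was not analysed here.

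Gene expression is given as FPKM, fragment abundance per transcript length and library size, as the authors deposited it, averaged over the 2 libraries of a date. Sums of FPKM over all genes ran from 278558 to 341666 per library. Relative sequencing depth, read from the steps of low values in 193 genes, ran from 0.951 to 1.045, while absolute depth is unknown. The median gap between the 2 libraries of a date, on the log2(FPKM + 1) scale, ran from 0.05 to 0.26 over the 71 genes. Their range over the 25 dates ran from 0.30 to 2.35, with a median of 0.93. In 62 of 71 genes this range was more than 5 times the gene's median gap between libraries. A range over 25 dates is expected to be wider than a gap of 2 libraries even without differences between dates. The share over all genes was not computed. Since both libraries of a date share its conditions, the date was the unit of every test and p-values measure the spread between dates. The tests treat dates as independent, though the June to August and December to February dates are neighbouring months of 2 summers and 2 winters. Because the block is bulk tissue, fewer cells of a type and less RNA per cell cannot be told apart. Markers of several cell types also moved with the season. Of all genes tested, 31.0% were higher in June to August than in December to February and 23.5% lower. Among markers, 6 of 10 neuron markers tested and 4 of 8 oligodendrocyte markers were higher in June to August, and none lower. Their summed level was 974 to 1326 FPKM in June to August against 917 to 1126 in December to February for neurons, and 199 to 309 against 112 to 214 FPKM for oligodendrocytes. Pituitary markers were higher for 4 of 9, at 825 to 2337 against 737 to 1665 FPKM, and hypothalamic markers were higher for 2 and lower for 4 of 11. Of 8 erythrocyte markers listed only 1, epb41, was matched, and 1 gene does not show a change in that cell type. The level of epb41 was lower, at 33.7 to 46.4 against 55.1 to 75.8 FPKM, without overlap. Of the remaining lists, 1 of 7 radial glia markers was lower, 1 of 3 microglia and 1 of 7 endothelium markers were higher and as many lower, and 1 of 10 telencephalon markers was higher. No marker matched in the table was at 0 in every library. The part of these shifts in the results below was not tested.

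A yearly curve was fitted to each gene with limma on log2(FPKM + 1), with Benjamini-Hochberg adjustment over all 16493 genes and a threshold of 0.05. It passed for 47 of the 71 genes, where 53.4% of all genes tested passed. Crests fell in July or August for 30 of the 47 (63.8%, against 55.1% of all genes that passed) and in January or February for 15 (31.9%, against 39.5%). Fitted in each year alone, the curve passed for 39 genes in the second year and 41 in the first, against 41.1% and 41.8% of all genes tested. The crest returned in the second year within 45 days for 44 of 47 (93.6%, against 92.1% of all genes that passed), with a median gap of 14.1 days. The share of crests that returned was thus near that of all genes.

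**Figure D1:**
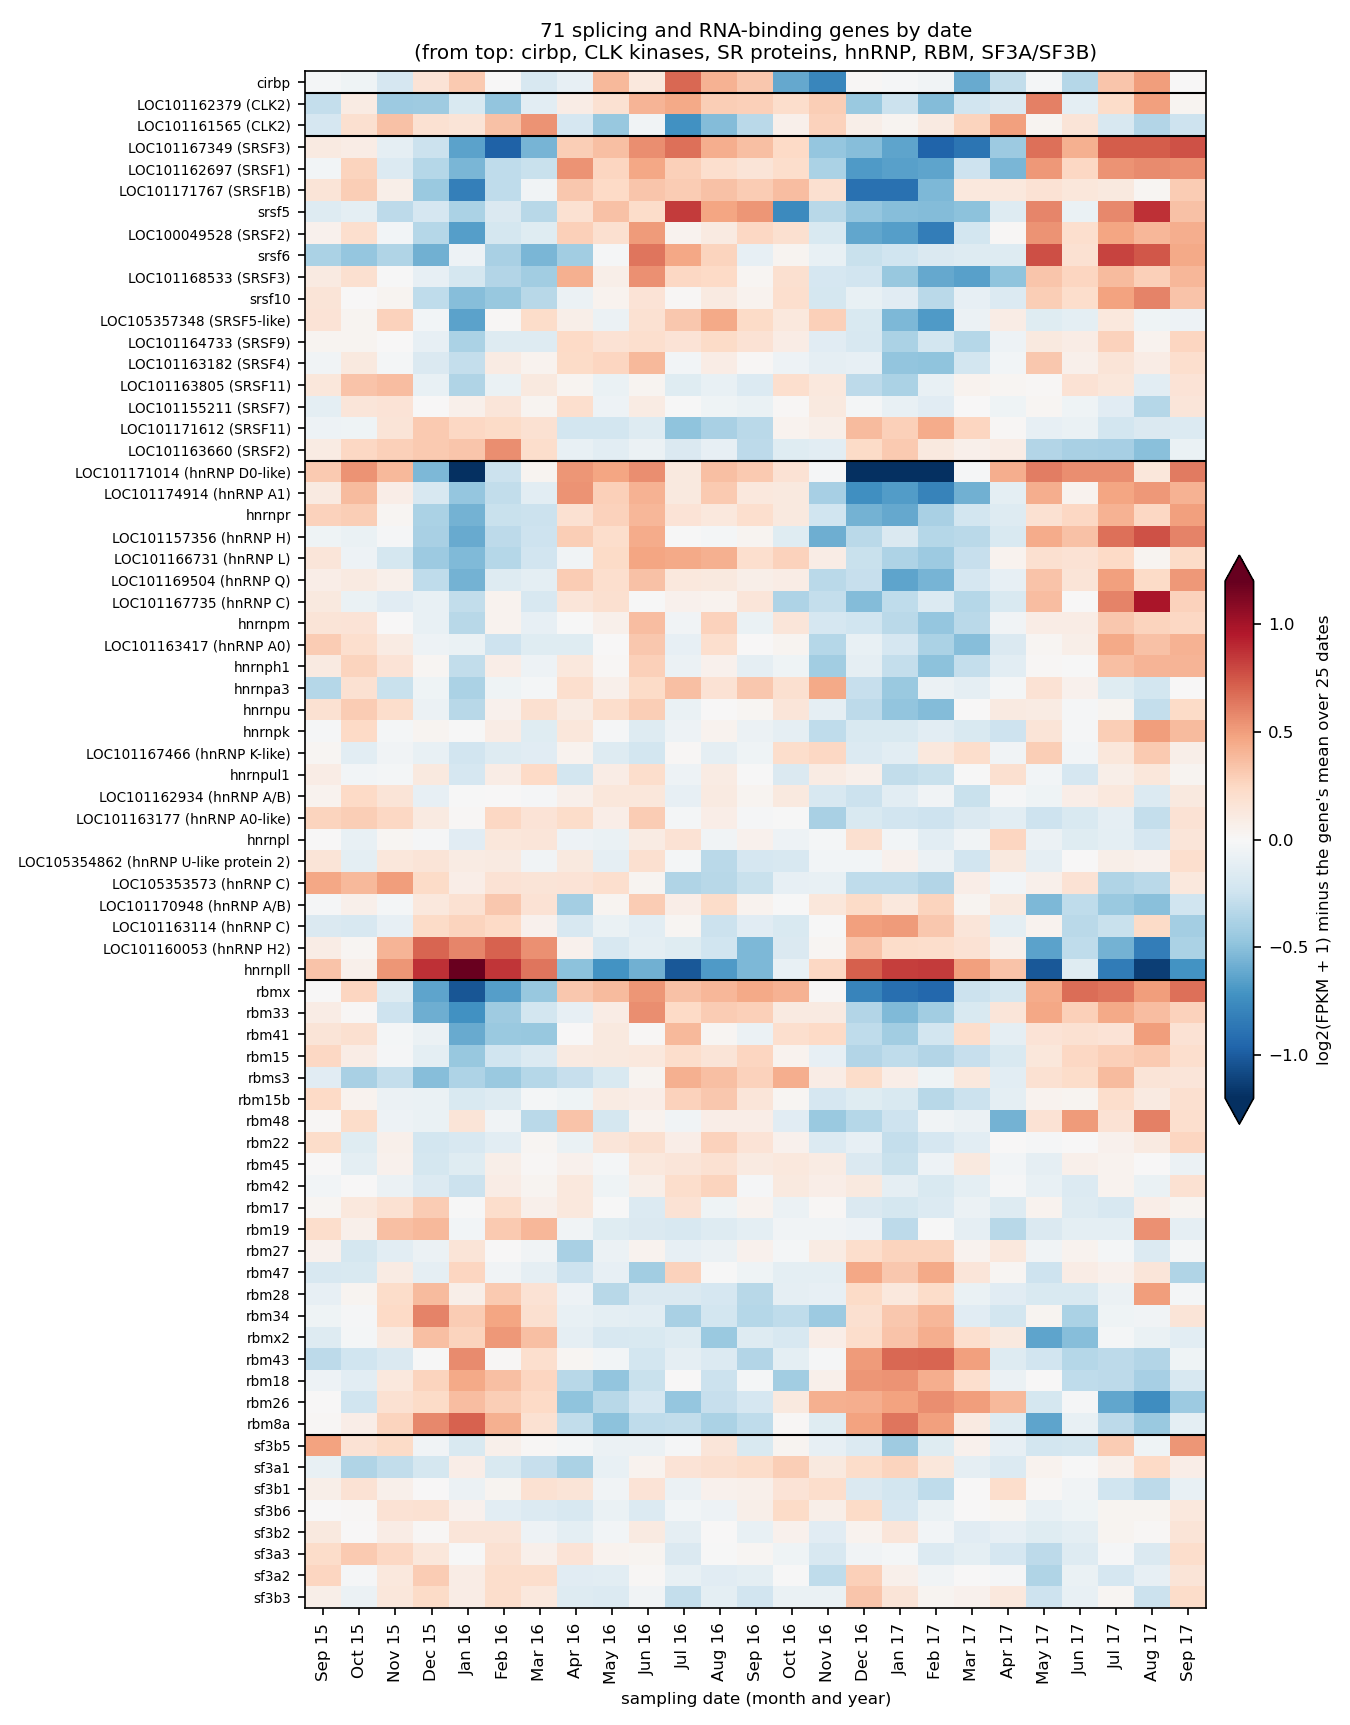
Levels of the 71 genes (rows, grouped by family and ordered by their summer minus winter difference) on 25 sampling dates (columns). Colour is log2(FPKM + 1) minus the gene's mean over dates. Within each family except cirbp and SF3A/SF3B, rows that are red in the summers and blue in the winters stand above rows with the opposite pattern.

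Between June to August and December to February, 34 of the 71 genes were higher, where 31.0% of all genes tested were, and 16 were lower, where 23.5% were. Together 50 of 71 passed, against 54.5% of all genes tested, and the other 21 did not. All 50 that passed had the same sign in both years, but the test that chose them pooled those same years, so this is not a separate repeat. Among SR proteins, 12 of 15 were higher and 2 lower, with a median difference of 0.57 on the log2 scale, against 0.06 over all genes tested. Among hnRNP genes 12 of 24 were higher and 4 lower (median 0.22), and among RBM genes 9 of 21 were higher and 7 lower (median -0.05). Of the 8 SF3A and SF3B subunits 2 were lower and the other 6 did not pass (median -0.07). The levels of all 6 June to August dates lay above all 6 December to February dates in 22 of the 71 genes, against 16.9% of all genes tested, and below them in 11, against 14.1%.

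**Figure D2:**
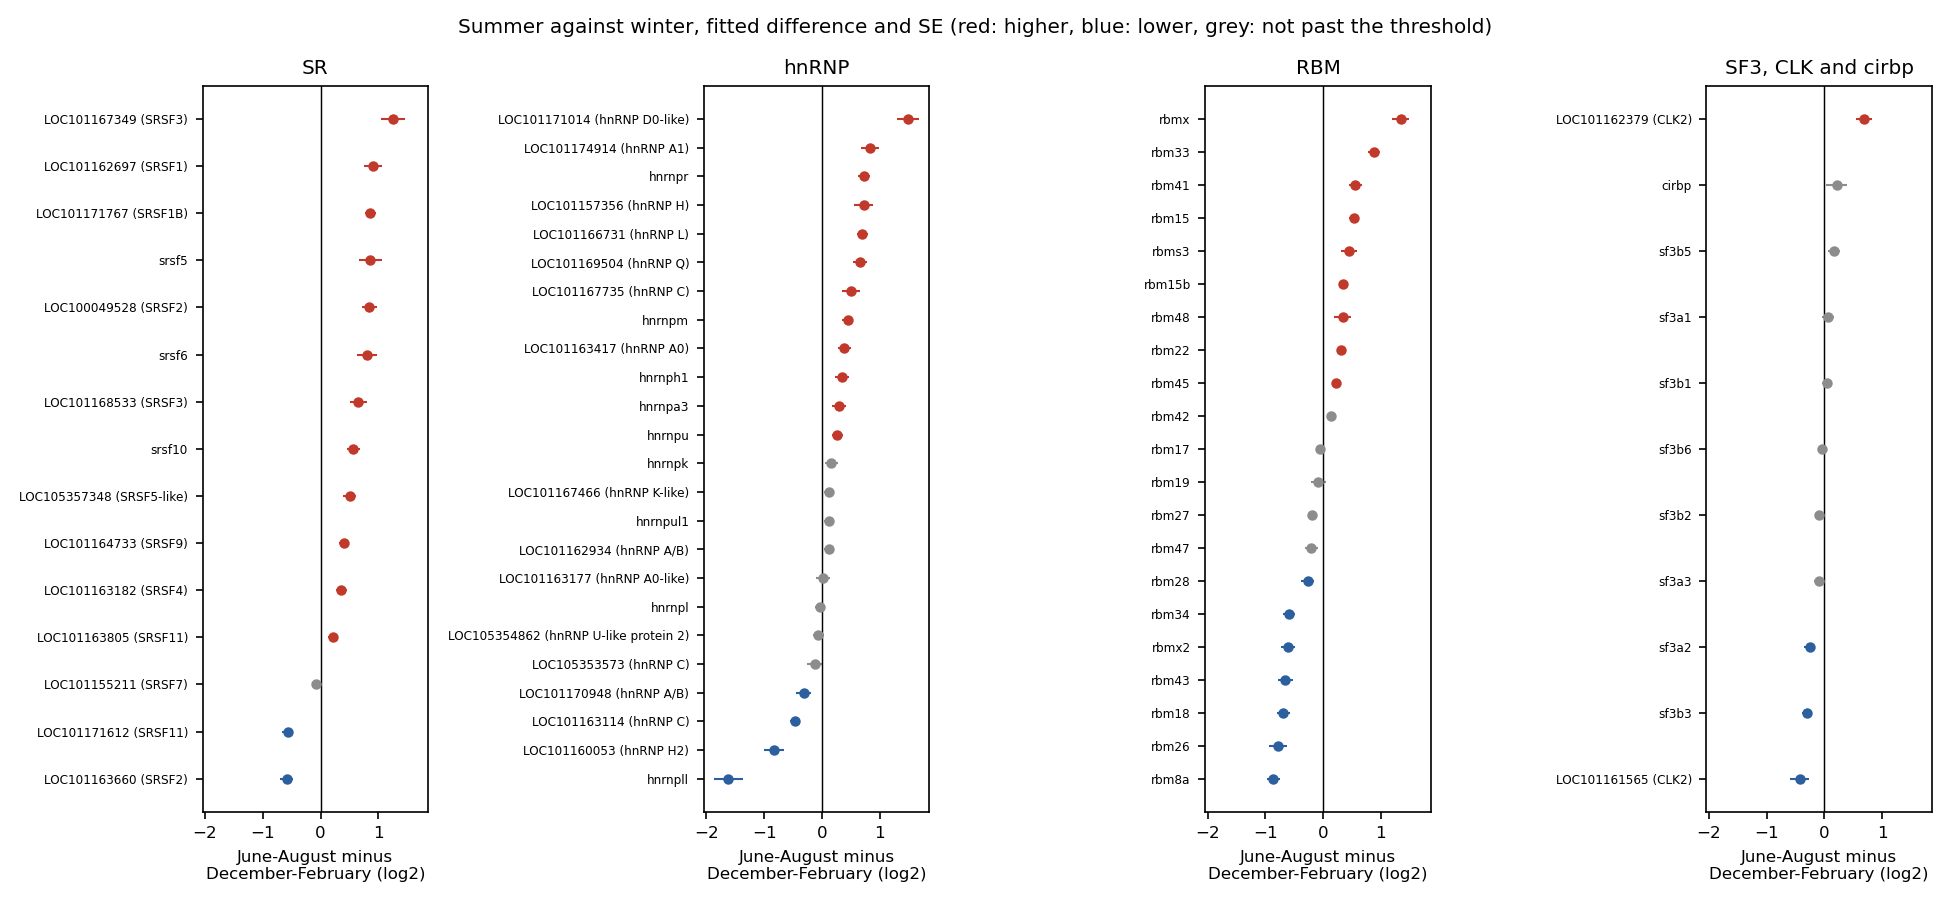
Fitted difference in log2(FPKM + 1), June to August minus December to February, for each of the 71 genes (points) with its SE (bars), by family. Red points are higher and blue points lower at an adjusted p under 0.05, and grey points did not pass. SR proteins lie mostly to the right of 0, from -0.59 to 1.26, while the SF3A and SF3B subunits lie between -0.30 and 0.17.

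The strongest rise among SR proteins was in LOC101167349, a copy of srsf3, which encodes a small SR protein that also takes part in mRNA export. Its lowest, median and highest levels were 39.0, 44.4 and 48.3 FPKM on June to August dates, against 14.2, 18.1 and 23.9 FPKM on December to February dates. The 2 seasons did not overlap, and the gap between them was wider than either season's own range. Means were 43.9 ± 4.23 against 18.1 ± 3.65 FPKM (SD, n = 6 dates each), a log2 difference of 1.26 ± 0.21 (SE, limma adjusted p = 2.76e-05). Both copies of srsf1, the founding SR protein and an activator of exon inclusion, were higher too. LOC101162697 averaged 48.9 ± 5.56 against 25.6 ± 3.10 FPKM (0.91 ± 0.16, adjusted p = 5.28e-05). LOC101171767, named srsf1B, averaged 21.2 ± 2.07 against 11.4 ± 2.2 FPKM (0.86 ± 0.09, adjusted p = 3.81e-07). Neither copy had a summer date as low as any winter date.

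The most abundant SR gene was srsf5, an exon-binding SR protein, at 172, 262 and 334 FPKM (lowest, median, highest) in June to August, against 126, 135 and 160 FPKM in December to February. The summer dates were widely spread yet all above the winter ones, and the log2 difference was 0.86 ± 0.20 (adjusted p = 7.51e-04). The family members srsf6 and srsf10 were higher as well. For srsf6 the means were 14.0 ± 2.61 against 7.54 ± 1.04 FPKM (0.80 ± 0.17, adjusted p = 4.37e-04). For srsf10, which represses splicing when dephosphorylated by heat shock in mammalian cells, they were 54.1 ± 8.97 against 36.0 ± 4.25 FPKM (0.57 ± 0.11, adjusted p = 1.41e-04). In contrast, srsf7 (LOC101155211) was at 64.6 ± 6.51 against 68.1 ± 4.83 FPKM and was the 1 SR gene that did not pass (adjusted p = 0.406). The SR genes that fell were LOC101163660, a copy of srsf2, and LOC101171612, a copy of srsf11, described with their sister copies below.

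Among hnRNP genes the widest swing upward was that of LOC101171014, named hnRNP D0-like, after the AU-rich element binding protein that governs mRNA decay. On June to August dates it had 39.6, 50.5 and 54.3 FPKM (lowest, median, highest), against 10.4, 14.0 and 30.4 FPKM on December to February dates. No date of the 2 seasons overlapped, and the log2 difference was 1.50 ± 0.19 (adjusted p = 1.24e-06). The trough was brief: 24.8, 10.4 and 30.4 FPKM in December 2015 to February 2016 and 15.1, 12.0 and 12.9 FPKM a year later, between 48.2 FPKM in November 2015 and 37.3 FPKM in March 2016, and between 36.2 FPKM in November 2016 and 36.1 FPKM in March 2017. LOC101174914, hnRNP A1, an abundant splicing silencer, averaged 134 ± 17.8 against 74.9 ± 13.2 FPKM (0.84 ± 0.16, adjusted p = 1.17e-04). The gene hnrnpr, whose product binds actin mRNA in mouse motor neurons, averaged 72.9 ± 6.02 against 43.5 ± 4.35 FPKM (0.73 ± 0.11, adjusted p = 7.03e-06). The most abundant hnRNP gene, LOC101163417 for hnRNP A0, averaged 141 ± 19.4 against 106 ± 9.00 FPKM (0.39 ± 0.11, adjusted p = 0.00504).

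The largest fall of the 71 genes was in hnrnpll, an hnRNP L relative that controls exon skipping of CD45 in mouse and human T cells. It had 23.6, 30.9 and 47.7 FPKM (lowest, median, highest) in June to August, against 87.7, 96.0 and 121 FPKM in December to February. Each winter date was above each summer date, and the log2 difference was -1.62 ± 0.25 (adjusted p = 9.72e-06), with -1.50 in the second year and -1.73 in the first. LOC101160053, hnRNP H2, a binder of G-rich runs, averaged 11.4 ± 2.2 against 20.9 ± 3.48 FPKM (-0.83 ± 0.17, adjusted p = 2.29e-04). LOC101163114, hnRNP C, a binder of U-rich tracts, averaged 22.5 ± 3.61 against 31.2 ± 2.87 FPKM (-0.47 ± 0.09, adjusted p = 1.12e-04), and 5 of its 6 summer dates lay below every winter date.

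RBM genes were split between the seasons. The gene rbmx, which encodes hnRNP G, had 51.6, 57.9 and 64.5 FPKM (lowest, median, highest) in June to August, against 19.2, 21.9 and 25.5 FPKM in December to February. All summer levels were above all winter levels, with a log2 difference of 1.34 ± 0.14 (adjusted p = 3.38e-07). The gene rbm33 averaged 19.5 ± 1.73 against 10.1 ± 1.02 FPKM (0.88 ± 0.10, adjusted p = 7.14e-07). A part of the RNA methylation (m6A) writer complex, rbm15, averaged 23.1 ± 1.23 against 15.8 ± 1.38 FPKM (0.53 ± 0.08, adjusted p = 9.75e-06). In the other direction, rbm8a, which encodes the exon junction complex core protein Y14, had 68.6, 75.5 and 88.2 FPKM in June to August, against 127, 137 and 154 FPKM in December to February. The seasons did not overlap, and the log2 difference was -0.86 ± 0.11 (adjusted p = 2.01e-06). The zinc-finger RNA-binding gene rbm26 averaged 11.0 ± 2.25 against 19.3 ± 1.71 FPKM (-0.78 ± 0.16, adjusted p = 2.25e-04). For rbmx2, whose yeast relative belongs to a complex on the U2 particle, the means were 4.81 ± 0.774 against 7.70 ± 0.674 FPKM (-0.60 ± 0.12, adjusted p = 2.10e-04).

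**Figure D3:**
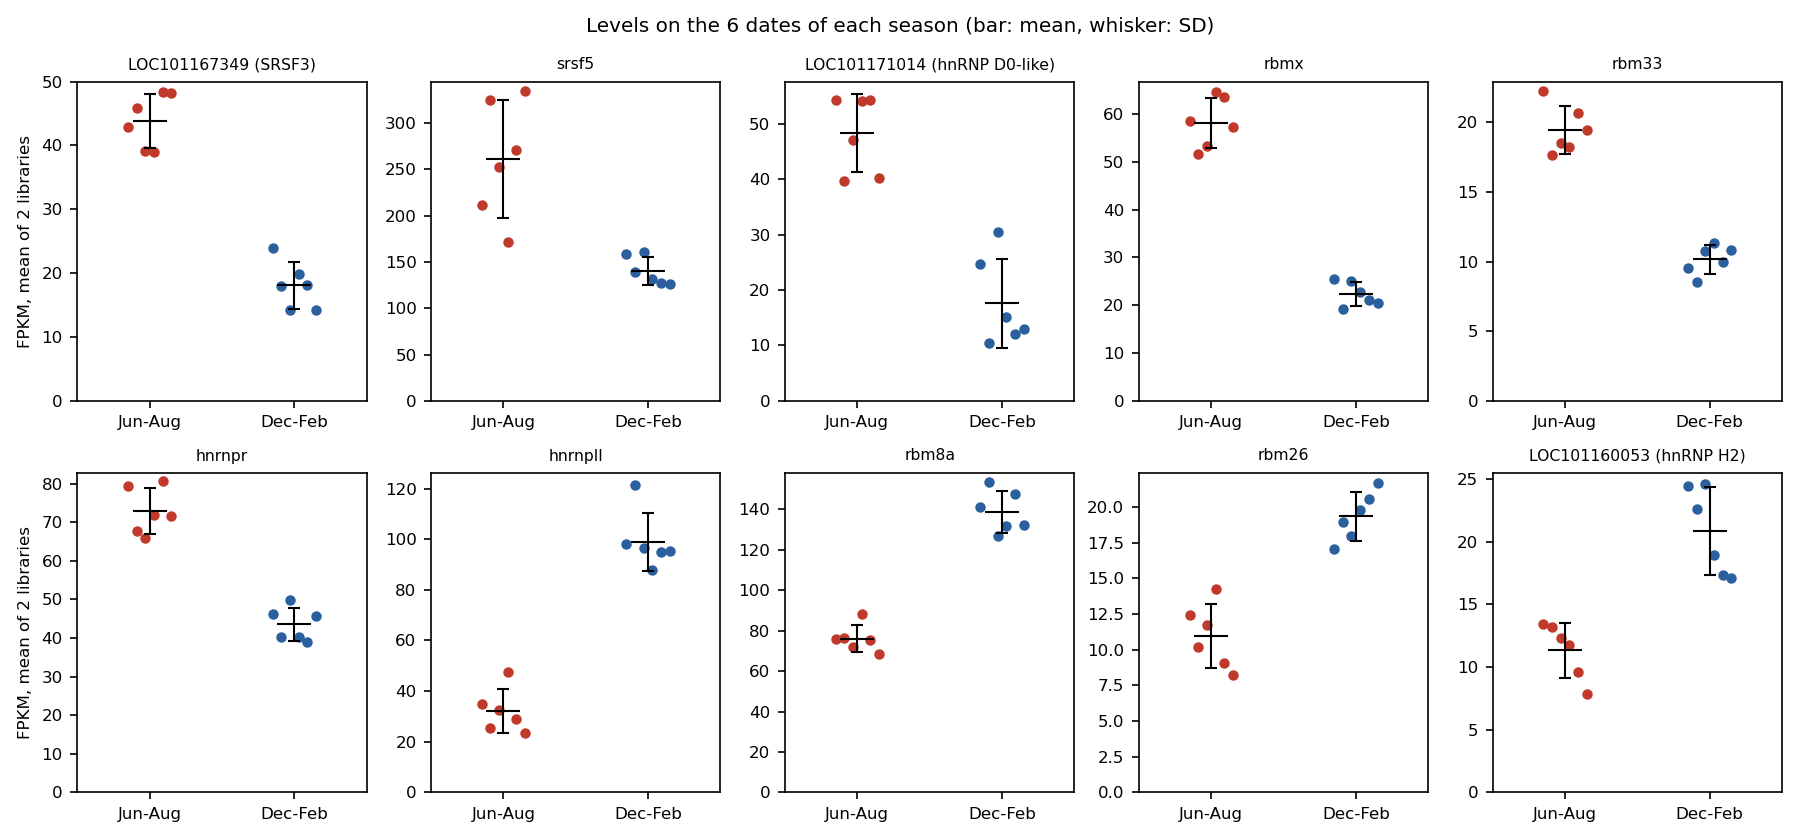
FPKM on the 6 June to August dates (left, red) and the 6 December to February dates (right, blue) for 6 genes that were higher and 4 that were lower, 1 panel a gene. Points are dates (mean of 2 libraries), the bar is the mean and the whisker the SD, and each axis starts at 0. In all 10 panels the dates of the seasons are apart, from 39.0 to 48.3 against 14.2 to 23.9 FPKM for LOC101167349 to 23.6 to 47.7 against 87.7 to 121 FPKM for hnrnpll.

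The SF3A and SF3B subunits differed little between June to August and December to February, by -0.30 to 0.17 on the log2 scale. From the lowest to the highest date their ranges ran from 0.30 for sf3b2 to 0.96 for sf3b5. Such a range is wider than a difference of season means by construction. For sf3b5 the median gap between the 2 libraries of a date was 0.24. The yearly curve passed for 3 of the 8 subunits, among them sf3b6 with a crest in November (adjusted p = 0.00573). With July to September set against January to March, 1 subunit was higher and 0 were lower. Of all 16493 genes tested, 5036 were higher and 3462 lower with those months. The subunit sf3b3 averaged 17.2 ± 1.51 against 21.5 ± 1.65 FPKM in June to August and December to February (-0.30 ± 0.08, adjusted p = 0.00366), and sf3a2 17.1 ± 0.881 against 20.6 ± 2.02 FPKM (-0.25 ± 0.09, adjusted p = 0.0226). The call of sf3a2 was lost when the December 2015 or the December 2016 date, or the second library of June or August 2017, was left out (adjusted p 0.0512 to 0.0576) and from July 2016 on alone (-0.23, adjusted p = 0.111), and both calls were lost when July to September was set against January to March (-0.19, adjusted p = 0.0636, for sf3b3 and -0.12, adjusted p = 0.276, for sf3a2). The branch point binding subunit sf3b1 had 65.5, 78.5 and 91.9 FPKM (lowest, median, highest) in June to August, against 66.1, 75.2 and 83.9 FPKM in December to February. Its seasons overlapped almost fully, and the difference was 0.05 ± 0.08 (adjusted p = 0.647).

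The 2 CLK2 copies, kinases of SR proteins, went opposite ways. LOC101161565, the second most abundant of the 71 genes, had 116, 159 and 214 FPKM (lowest, median, highest) in June to August, against 196, 210 and 245 FPKM in December to February. In 5 of 6 summer dates it was below every winter date, and the log2 difference was -0.43 ± 0.16 (adjusted p = 0.0263). This call was lost under quantile normalization (-0.36, adjusted p = 0.0783), from July 2016 on alone (-0.40, adjusted p = 0.0784), and when the date of February 2016, July 2016 or August 2016 was left out (adjusted p 0.0563 to 0.0800). LOC101162379 was lower in level and rose, at 16.8, 23.7 and 26.2 FPKM in June to August, against 12.5, 13.2 and 16.0 FPKM in December to February. Its seasons did not overlap, and the difference was 0.68 ± 0.14 (adjusted p = 2.06e-04).

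Many of these genes share a product name with another once the ending -like or a copy letter B is dropped, and are called copies here. In all 14 pairs of such copies could be formed, among them rbm15 with rbm15b. This comparison was added after the seasonal differences had been seen. In 4 pairs both copies passed the test in opposite directions. How many pairs of unrelated genes would do so was not computed, while 31.0% of all genes tested were higher and 23.5% lower. The ratio of the copies was compared between the 6 dates of each season by an exact two-sided permutation test, whose smallest possible p is 0.00216. For the 4 pairs with opposite calls, this test used the same dates as those calls. A differing ratio was thus given in advance for these pairs, and its p is not separate support. For srsf2, which binds exons as an activator, LOC100049528 had 48.3, 58.0 and 67.1 FPKM (lowest, median, highest) in June to August, against 25.9, 29.7 and 40.2 FPKM in December to February. Its sister LOC101163660 had 15.7, 18.6 and 21.5 FPKM, against 24.7, 28.5 and 33.9 FPKM. One copy was therefore between 2.40 and 3.94 times as abundant as the other in summer, against 1.01 and 1.28 times in winter, and the log2 ratio differed by 1.43 (exact permutation p = 0.00216, 0.00433 after adjustment over the 14 pairs).

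The ratio of the CLK2 copies LOC101162379 and LOC101161565 was 0.0784 to 0.221 in June to August, against 0.0526 to 0.0774 in December to February, a log2 difference of 1.11 with the same p. For hnRNP C the ratio of LOC101167735 to LOC101163114 was 0.864 to 1.58 against 0.407 to 0.734 (log2 difference 0.96, same p). LOC101167735 itself averaged 26.1 ± 8.66 against 17.7 ± 2.51 FPKM, with its highest level, 41.5 FPKM, in August 2017. For srsf11, which acts on small neuronal exons in mammals, the ratio of LOC101163805 to LOC101171612 was 0.430 to 0.537 against 0.255 to 0.336 (log2 difference 0.78, same p). LOC101171612 averaged 60.3 ± 6.38 against 89.6 ± 5.26 FPKM (-0.57 ± 0.09, adjusted p = 1.74e-05), while LOC101163805 averaged 29.9 ± 2.95 against 25.7 ± 2.73 FPKM (0.21 ± 0.08, adjusted p = 0.0314). This call of LOC101163805 was lost under median ratio scaling (0.16, adjusted p = 0.0882), when July to September was set against January to March (0.11, adjusted p = 0.37), from July 2016 on alone (0.25, adjusted p = 0.0636), and when 1 of 6 dates was left out (January 2016, June 2016, December 2016, January 2017, June 2017 or July 2017, adjusted p 0.0522 to 0.0805).

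Of the 14 pairs, 9 had a ratio that differed between the seasons after adjustment over the pairs, and 7 of these reached the smallest p. Among them are the 4 pairs whose copies had already passed in opposite directions on the same dates. The hnRNP C pairs share genes with each other, and no share for pairs of unrelated genes was computed. The ratio test did not pass for srsf1, whose copies were both higher in summer (log2 difference of the ratio 0.05, exact permutation p = 0.697), nor for hnRNP K, neither of whose copies passed (0.04, exact permutation p = 0.678). Since which copy of a pair stands on top was set by the seasonal estimate, the sign of these differences carries no information. How the authors' counting shared reads between near-identical copies is not given, so the level of a single copy is uncertain where its sequence is close to that of its sister.

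**Figure D4:**
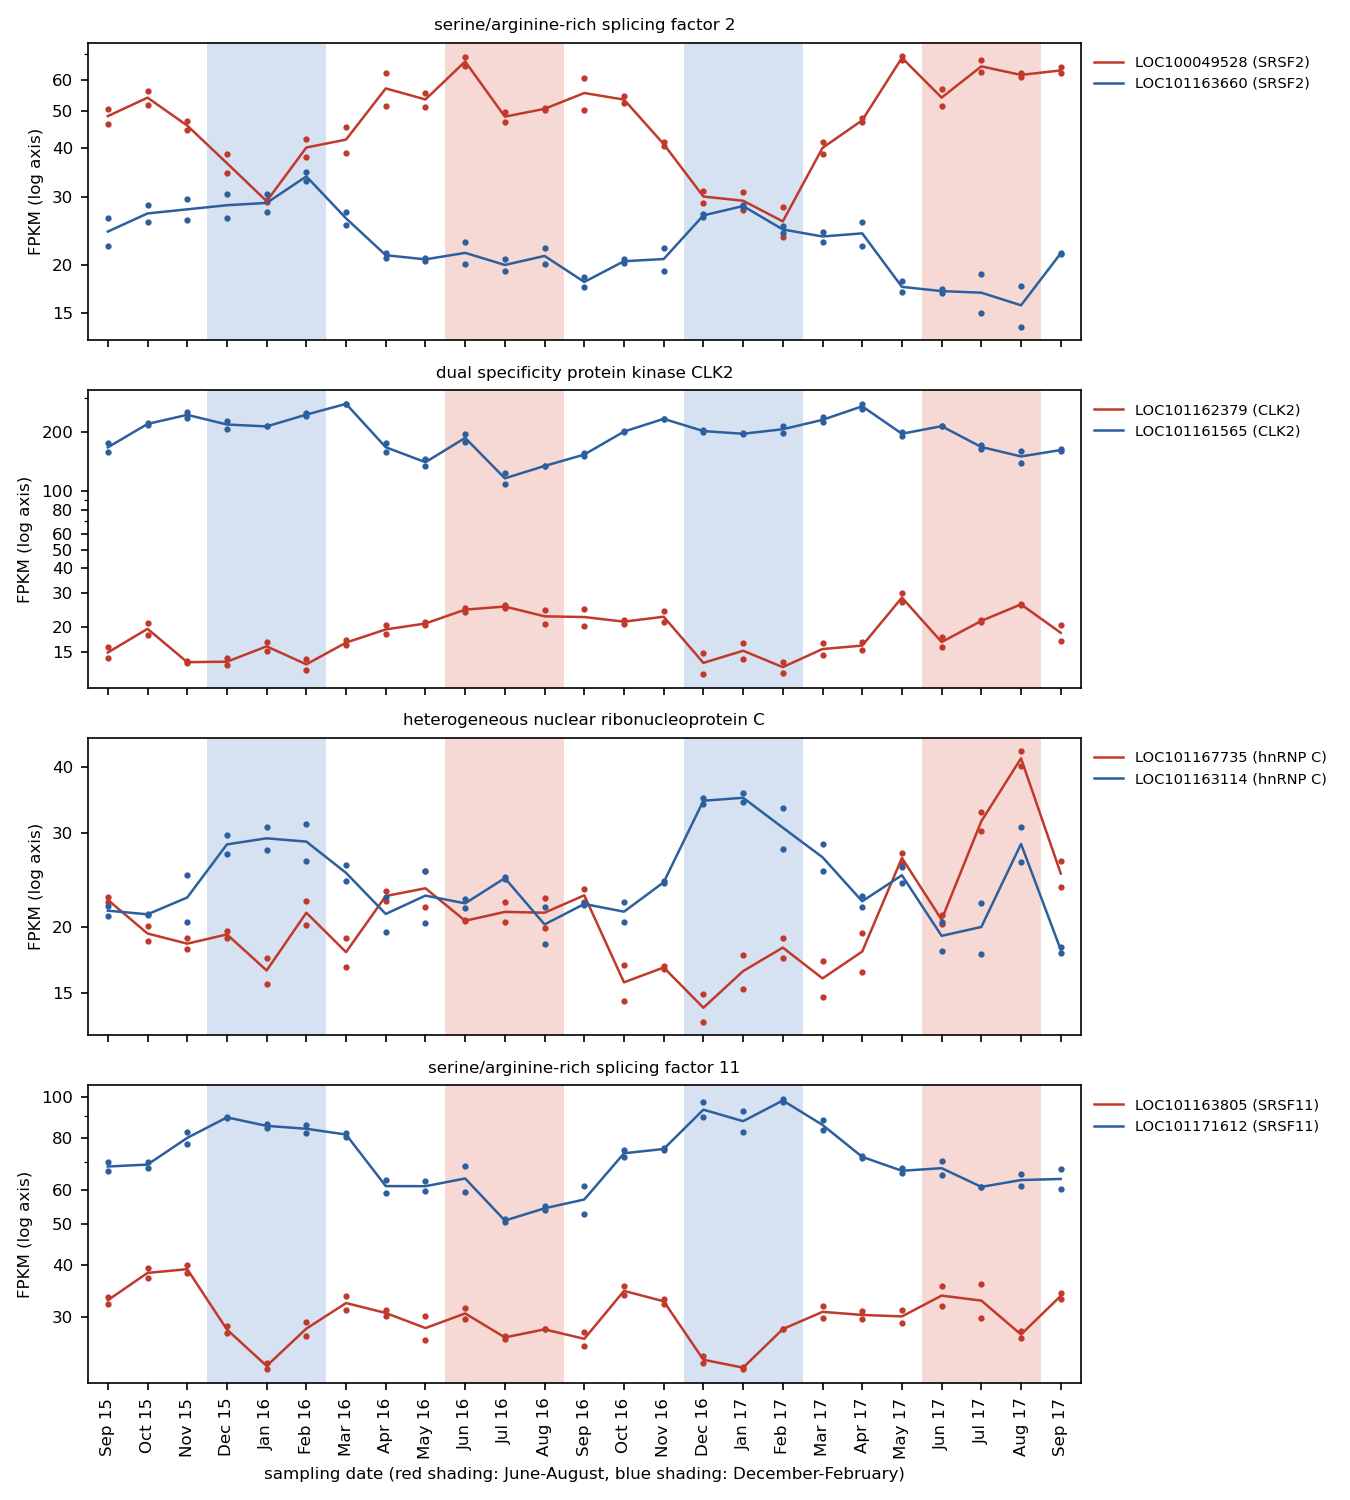
FPKM on a log axis by date for the 4 pairs of copies whose members passed in opposite directions (lines: date means, points: the 2 libraries). Red shading marks June to August and blue shading December to February. The srsf2 copies nearly meet in winter, at 1.01 to 1.28 times, and part in summer, at 2.40 to 3.94 times.

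Cirbp was the most abundant of the 71 genes at a mean of 968 FPKM, and did not pass between summer and winter. It had 741, 1221 and 1516 FPKM (lowest, median, highest) in June to August, against 911, 948 and 1166 FPKM in December to February. The seasons overlapped: 4 of 6 summer dates were above every winter date and 1 was below all of them. Means were 1176 ± 268 against 993 ± 97.8 FPKM (0.21 ± 0.18, adjusted p = 0.323), and the yearly curve did not pass either (adjusted p = 0.165). That curve passed with the date as a random effect (adjusted p = 0.0362), with libraries as separate samples (0.0209) and with the replicate block (0.0233). With the comparison moved by a month, so that July to September was set against January to March, the difference was 0.41 (adjusted p = 0.0379). Month by month, cirbp stood at 1052 and 1166 FPKM in December 2015 and January 2016, 823 in March, 1232 in May, 1516 in July 2016 and 1180 in September 2016. It then stood at 615 in October and 547 FPKM in November 2016, 949 in December, 616 in March 2017, 741 in June and 1333 FPKM in August 2017. A 6-month wave added to the yearly curve had a range of 0.55 and did not pass (adjusted p = 0.0665), but passed under quantile normalization (adjusted p = 0.0324), under median ratio scaling (adjusted p = 0.0355), without the date of May 2016 (0.0315) and without that of June 2017 (0.0307). It also passed with the date as a random effect (adjusted p = 0.00291), with libraries as separate samples (5.36e-04) and with the replicate block (8.79e-04). Under these 3 fits 12.1%, 27.9% and 27.6% of all genes tested passed the wave, against 8.55%.

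**Figure D5:**
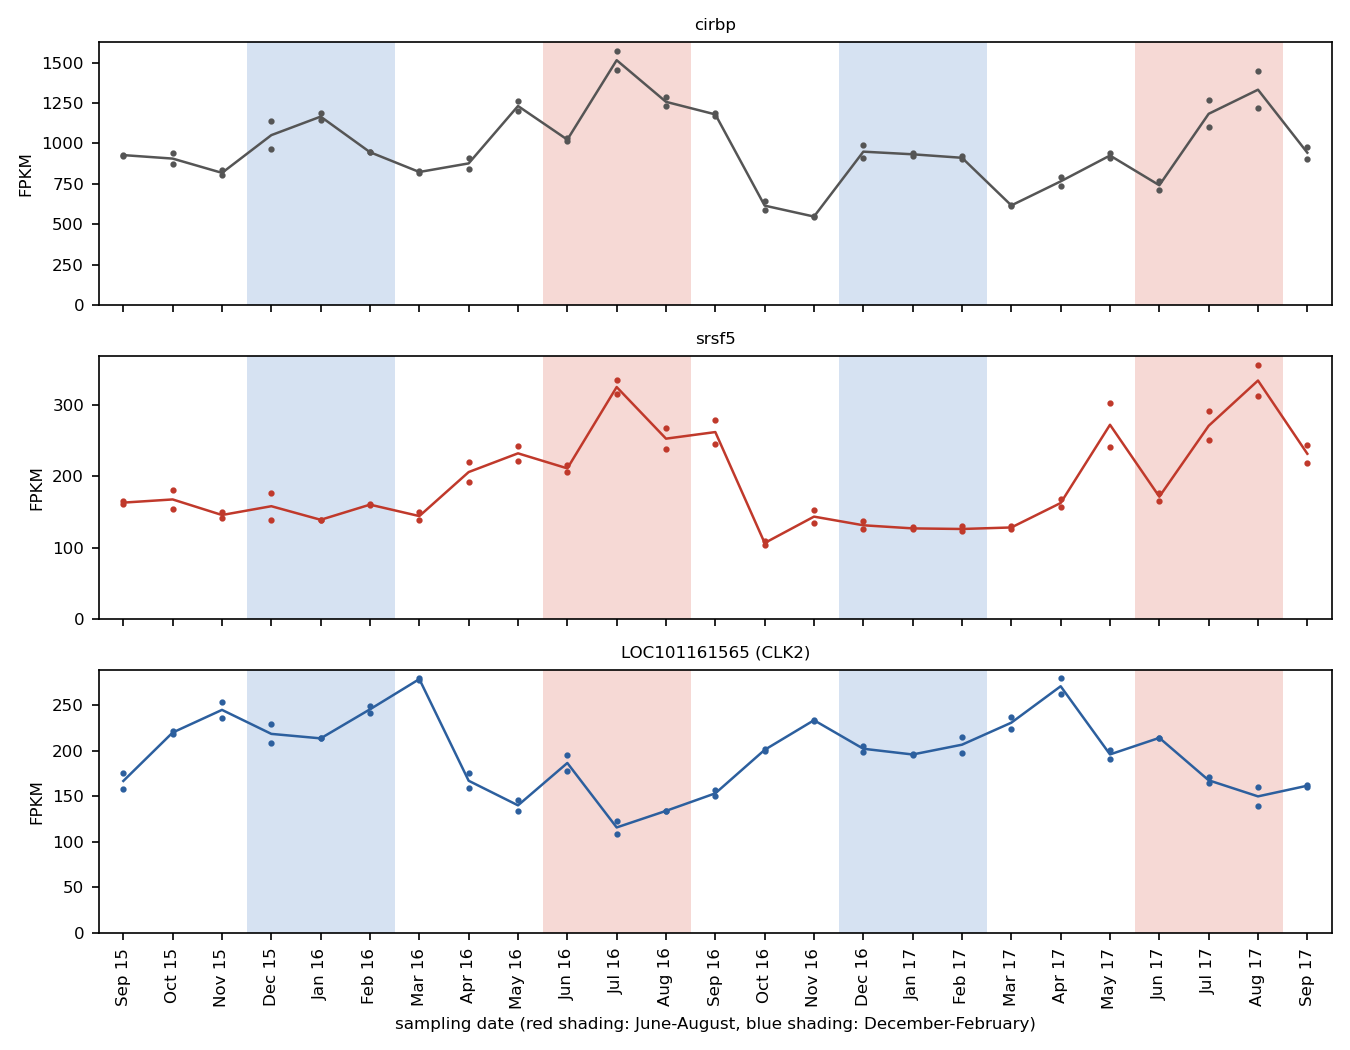
FPKM by date for cirbp, for srsf5, whose course was most like it, and for the CLK2 copy LOC101161565, whose course was least like it (lines: date means, points: the 2 libraries, axes from 0). Red shading marks June to August and blue shading December to February. In July 2016 cirbp and srsf5 stood at 1516 and 325 FPKM and LOC101161565 at its lowest level, 116 FPKM.

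Over the 25 dates, which share libraries and scaling between genes, the course of cirbp on the log2(FPKM + 1) scale was most like that of srsf5 (Pearson r 0.71, Spearman rho 0.61). It was next most like rbm15b (r 0.56) and LOC101167735, hnRNP C (r 0.54). The least like were the CLK2 copy LOC101161565 (r -0.71), rbm26 (r -0.58) and the srsf11 copy LOC101163805 (r -0.48). The median r over the other 70 genes was 0.09, with 3 genes above 0.5 and 2 below -0.5. The like shares over all genes tested were not computed.

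August to October and February to April have a like day length but fall on opposite sides of the summer. Their August and February dates are also in the summer to winter comparison, so its results are not repeated on separate dates. Between August to October and February to April, 17 of the 71 genes were higher, where 12.9% of all genes tested were, and 8 were lower, where 9.06% were. Among SR proteins 6 of 15 were higher and 1 lower, among hnRNP genes 5 and 2 of 24, and among RBM genes 5 and 4 of 21. The SF3A and SF3B subunits and cirbp did not pass. The levels of all 7 August to October dates were above all 6 February to April dates in 3 genes, LOC101163417, rbm15b and srsf10, against 1.31% of all genes tested, and below all of them in 0 genes, against 0.812%.

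The srsf3 copy LOC101167349 had 30.6, 37.3 and 49.6 FPKM (lowest, median, highest) in August to October, against 14.2, 17.2 and 35.5 FPKM in February to April. The seasons overlapped through April 2016, and the difference was 0.98 ± 0.16 (adjusted p = 0.00136). LOC101163417, hnRNP A0, had 120, 138 and 160 FPKM against 84.0, 104 and 108 FPKM (0.48 ± 0.10, adjusted p = 0.00336). The writer complex gene rbm15 averaged 22.5 ± 1.59 against 17.2 ± 2.13 FPKM (0.37 ± 0.08, adjusted p = 0.00388), and its relative rbm15b 7.60 ± 0.648 against 5.94 ± 0.573 FPKM (0.31 ± 0.07, adjusted p = 0.00441). Of those that were lower, hnrnpll had 23.6, 36.0 and 67.4 FPKM against 37.4, 79.0 and 96.7 FPKM, with overlap between the seasons (-0.84 ± 0.22, adjusted p = 0.0115). LOC101160053, hnRNP H2, averaged 12.1 ± 2.77 against 18.5 ± 3.86 FPKM (-0.58 ± 0.14, adjusted p = 0.00835). The gene rbmx2 differed by -0.42 ± 0.10 (adjusted p = 0.00862) and rbm26 by -0.51 ± 0.14 (adjusted p = 0.0156).

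The CLK2 copies went opposite ways, LOC101161565 at 169 ± 30.3 against 233 ± 41.7 FPKM (-0.46 ± 0.14, adjusted p = 0.0217) and LOC101162379 at 20.9 ± 3.59 against 15.5 ± 2.59 FPKM (0.40 ± 0.13, adjusted p = 0.0363). The first call was lost without the date of February, March or August 2016 (adjusted p 0.0505 to 0.0565), and the second without any 1 of 7 dates (February, August, September or October 2016, or February, March or August 2017; adjusted p of 0.0519 or more) and under quantile normalization or median ratio scaling (adjusted p 0.0631 and 0.0661). The call of rbm26 was lost without February 2017 (adjusted p = 0.0502). Without the February 2017 date 11 genes were higher and 4 lower, and without the February 2016 date 5 were lower. The calls also rest on the months chosen: in September to November against March to May, 0 of the 71 genes passed by limma in either direction, as did only 6 of all 16493 genes tested, so that this says nothing about the 71 genes in particular. With those months the CLK2 copies LOC101161565 and LOC101162379 differed by -0.09 and -0.03, no longer in opposite directions.

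In the second year, compared with the same months of the first, 4 of the 71 genes were higher, where 3.01% of all genes tested were, and 3 were lower, where 8.97% were. The split over all genes depended on the scaling: 496 genes were higher and 1479 lower as deposited. Median ratio scaling gave 811 higher and 997 lower genes, quantile normalization 850 higher and 964 lower ones, and under each of these 2 scalings 5 of the 71 were higher and 3 lower. Markers moved with the year too: 5 of 10 telencephalon markers were higher and 1 lower, 3 of 9 pituitary markers were higher, and 4 of 8 oligodendrocyte markers were lower. Also lower were 2 of 10 neuron, 2 of 7 radial glia and 2 of 7 endothelium markers. Of 11 hypothalamic markers 1 was higher and 2 lower, and no microglia or erythrocyte marker passed. The part of these shifts in the result was not tested. LOC101163177, an hnRNP A0-like gene, had 25.5, 29.7 and 38.2 FPKM (lowest, median, highest) in the second year, against 33.3, 37.3 and 42.0 FPKM in the first. It was lower in 11 of 12 months, and 10 of its dates were below every date of the first year (-0.31 ± 0.06, adjusted p = 0.00538). Cirbp had 547, 918 and 1333 FPKM in the second year, against 818, 1038 and 1516 FPKM in the first, and was lower in 11 of 12 months (-0.31 ± 0.07, adjusted p = 0.00849). LOC101160053, hnRNP H2, was lower in 10 of 12 months (-0.30 ± 0.06, adjusted p = 0.00716). These 3 calls were lost in the pairs of July to September alone (-0.09, -0.20 and -0.28 for LOC101163177, cirbp and LOC101160053, adjusted p 0.723, 0.620 and 0.337). In those pairs 11 of all 16493 genes tested were higher and 0 lower, so the loss says nothing about these 3 genes in particular. The number of lower genes was 8 without the date of September 2016 or September 2017, and 5 without that of August 2016 or August 2017. With the month as a block, leaving out either year's date removes the same month from the year comparison. Such losses, here and below, therefore count once per month.

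LOC101167466, hnRNP K-like, averaged 23.7 ± 2.74 against 20.3 ± 1.26 FPKM and was higher in 10 of 12 months (0.21 ± 0.05, adjusted p = 0.0228). The gene rbms3 averaged 9.94 ± 1.19 against 8.08 ± 2.23 FPKM (0.30 ± 0.09, adjusted p = 0.0342). The SR genes srsf6 and srsf10 were higher in 10 of 12 months each, by 0.29 ± 0.09 (adjusted p = 0.0438) and 0.20 ± 0.06 (adjusted p = 0.0483). All 4 calls were lost together without the date of February, March or May 2016 or of February, March or May 2017, and those of srsf6 and srsf10 also without single libraries (adjusted p 0.0501 to 0.0648). The call of srsf6 was lost without any 1 date of either year but those of January and June (adjusted p 0.0552 to 0.0909), and that of srsf10 without any but those of April and November (adjusted p 0.0518 to 0.0998). The call of rbms3 was lost without any 1 date of October to March or May of either year (adjusted p 0.0597 to 0.0773) and without the second library of September 2016 (adjusted p = 0.0525). In the July to September pairs alone none of the 4 calls held: the adjusted p was 0.278 for LOC101167466, 0.0954 for srsf6 and 0.105 for srsf10, and rbms3 turned to -0.13 (adjusted p = 0.499). Since only 11 of all 16493 genes passed in those pairs, the loss of the calls there says nothing about these 4 genes in particular. The differences of srsf6 and srsf10 in those pairs were 0.46 and 0.42. In the October to June pairs alone, where 4992 of all genes passed, the calls of LOC101167466 and rbms3 held. Those of srsf6 and srsf10 were lost there too (0.23 and 0.12, adjusted p 0.106 and 0.145).

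The 6-month wave passed for 7 of the 71 genes, where 8.55% of all genes tested passed. It was strongest in the hnRNP D0-like gene LOC101171014 (range 1.04, adjusted p = 0.00137), whose yearly curve had a range of 1.54. The srsf1B gene LOC101171767 had a wave of 0.59 (adjusted p = 0.00238), hnrnpu, which encodes a nuclear scaffold protein, one of 0.40 (adjusted p = 0.0164), and sf3b1 one of 0.31 (adjusted p = 0.0203). Each of these 4 waves crested between day 109 and day 119 of the year in the fit, and again 6 months later. The wave alone does not show 2 crests a year in the levels. LOC101171767 stood at 23.0, 22.6 and 23.7 FPKM in April, July and October 2016, against 9.31 FPKM in December 2016. For sf3b1 the yearly curve had a range of 0.01 while the wave passed: it stood at 95.1 FPKM in April 2017 and 94.9 FPKM in November 2016, against 66.1 FPKM in February 2017 and 65.5 FPKM in August 2017. The call of sf3b1 was lost without the January 2017 date (adjusted p = 0.0511), and 4 genes passed without the January 2016, the April 2016 or the January 2017 date.

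Whether the summer to winter difference itself changed between the years was tested for each gene, with 3 dates per mean. By limma 0 of the 71 genes passed, where 0.0% of all genes tested did. At an unadjusted p under 0.05 there were 10 of the 71, against 14.4% of all genes tested. The difference in the second year and in the first was 0.86 and 0.14 for LOC101167735, hnRNP C, and -0.20 and -0.66 for the CLK2 copy LOC101161565, whereas it was 0.86 in both years for LOC101171767.

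Other splicing genes, in 5 lists chosen by name, moved as follows between June to August and December to February. Of 36 genes of the snRNP, U2AF and branch point core, 4 were higher and 18 lower (2 higher under quantile normalization or median ratio scaling), with a median of -0.19 against 0.06 over all genes. For this and the other 4 lists, 31.0% of all genes tested were higher and 23.5% lower. The Sm ring gene snrpf averaged 17.5 ± 2.84 against 36.3 ± 5.30 FPKM (-1.02 ± 0.15, adjusted p = 6.77e-06) and snu13, a U4 particle gene, 15.8 ± 1.07 against 34.8 ± 2.94 FPKM (-1.09 ± 0.16, adjusted p = 8.29e-06). The helicase dhx15, which takes spent spliceosomes apart, averaged 23.9 ± 1.53 against 14.7 ± 3.97 FPKM (0.70 ± 0.11, adjusted p = 1.40e-05). Of 41 PRPF and catalytic step genes 6 were higher and 16 lower (median -0.11), with crnkl1 in both lists. LOC101158365, pre-mRNA-processing factor 39, a U1 particle protein, was at 7.55 ± 0.824 against 2.02 ± 0.424 FPKM (1.52 ± 0.13, adjusted p = 6.83e-08). The tri-snRNP gene sart1 was at 27.6 ± 2.01 against 65.9 ± 9.39 FPKM (-1.22 ± 0.12, adjusted p = 1.37e-07), and dhx38, a second-step helicase, differed by -0.96 ± 0.11 (adjusted p = 4.79e-07).

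Of 34 SR-related genes and SR kinases 12 were higher and 11 lower (median 0.06). The SR kinase gene srpk1 averaged 33.5 ± 4.14 against 70.3 ± 3.79 FPKM (-1.06 ± 0.14, adjusted p = 1.74e-06), and tra2b, an exon-binding SR-like activator, 25.6 ± 5.65 against 11.2 ± 0.981 FPKM (1.10 ± 0.15, adjusted p = 2.31e-06). The gene rsrc1 was lower (-0.85 ± 0.12, adjusted p = 2.92e-06). Of 45 other regulators of alternative splicing 18 were higher and 15 lower (median 0.15). Among them ptbp1b, a repressor that binds pyrimidine tracts, differed by -0.80 ± 0.11 (adjusted p = 2.07e-06), LOC101157754, an rbfox2 copy, by -0.86 ± 0.12 (adjusted p = 3.10e-06), and LOC101171151, a celf6 gene, by 0.44 ± 0.06 (adjusted p = 3.26e-06). Of 23 exon junction, export and nonsense-mediated decay genes 6 were higher and 6 lower (median 0.01), among them thoc2 (0.54 ± 0.08), smg5 (-0.50 ± 0.09) and thoc7 (-0.47 ± 0.13). The spliceosomal core list thus had its median on the side of lower summer levels, and the SR proteins theirs on the side of higher ones.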

How the data were processed

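Per the labels' protocols, RNA was treated with DNase, mRNA was caught on poly-T beads, and strand-specific libraries were read from both ends, 100 bases each. Bowtie2 2.2.5 and RSEM 1.2.12 appear in the submitters' processing notes without a stated role. The genome build is not given in the sources used here, nor is the annotation, and no coordinates are printed. The values the authors deposited are FPKM per gene, 1 column per library, so a shift between isoforms of a gene is not seen. All 71 members were found by gene ID in the RefSeq gene table, used for names only.

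From these, log2(FPKM + 1) was averaged over the 2 libraries of a date, and the 16493 genes averaging 1 FPKM or more were tested with limma 3.58.1 (variance trend, R 4.3.3) and Benjamini-Hochberg adjustment over all of them. Fitted differences are on the log2(FPKM + 1) scale, which understates the change of low genes. Season contrasts used 4 blocks of 3 months over 25 dates, and the year contrast 24 dates with the month as a block. Tables and figures were made with pandas 2.3.3 and matplotlib 3.10.9 under Python 3.11.15. The fits were tested on simulated data whose dates were drawn independently, so that test cannot show the effect of dependence between neighbouring months.

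The members, gene lists and tests were chosen with earlier results of these data known. Named genes were cirbp, the CLK genes and, per family, the 3 higher and the 3 lower genes with the largest summer to winter difference (mean of at least 5 FPKM, same sign in both years) and the most abundant one; the 4 smallest adjusted p per direction for the other contrasts; the 3 genes most and least like cirbp; and 3 genes per list. Genes of the pairs of copies, srsf7 and the genes without overlap in the August to October comparison were named after their values were seen. The alternatives tried were another pseudocount (0.1 FPKM), no filter, quantile normalization, median ratio scaling, libraries as separate samples, the date as a random effect, the replicate number as a block, other months, dates from July 2016 only, and each library or date left out in turn.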

Additional observations from a re-analysis of the deposited data

Results flagged for a closer look

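In 3 of 90 groups of dates examined among named genes, 1 date stood apart from the rest of its season by Dixon's criterion, where chance gives about 1 in 20. The srsf3 copy LOC101167349 stood at 35.5 FPKM in April 2016, against 14.2 to 20.9 FPKM on the other February to April dates. The gene hnrnpll stood at 121 FPKM in January 2016, against 87.7 to 98.0 FPKM on the other December to February dates. LOC101167466, hnRNP K-like, stood at 24.0 FPKM in February 2017, against 18.5 to 20.5 FPKM on the other December to February dates.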

How the results depend on the processing

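The counts for June to August against December to February stayed within 1.5 times under every alternative (30 to 34 higher and 13 to 17 lower with 1 library or date left out), as did the yearly curve (43 to 48). Counts for the other comparisons moved. In August to October against February to April, 30 genes were higher with libraries as separate samples and 30 with the replicate block, against 17, and in September to November against March to May 0 were higher and 0 lower; with 1 library or date left out, 11 to 23 were higher and 4 to 11 lower. With separate libraries and with the replicate block, 24.8% and 23.8% of all genes tested were higher, against 12.9%. With the later months 6 of all 16493 genes passed. In the second year, against 4, 9 genes were higher with separate libraries, 7 with the date as a random effect, 9 with the replicate block and 0 in July to September pairs; against 3, 19, 8 and 18 were lower under the same 3 fits, 17 in October to June pairs and 0 in July to September pairs. Of all 16493 genes tested, 10.6%, 4.66% and 10.4% were higher under these 3 fits, and 4242, 2022 and 4231 genes were lower. In October to June pairs 3806 of all genes were lower. In July to September pairs 11 of all genes were higher and 0 lower. The ranges with 1 left out were 0 to 5 higher and 3 to 8 lower, with 8 lower without September 2016 or September 2017 and 5 without August 2016 or August 2017. The 6-month wave passed for 23, 15 and 22 genes under those 3 fits, for 1 from July 2016 on and for 4 to 10 with 1 left out, against 7. Of all genes tested, 27.9%, 12.1% and 27.6% passed under those 3 fits and 0.909% from July 2016 on, against 8.55%. The seasonal difference changed between years for 9 genes with separate libraries, 8 with the replicate block and 2 (hnrnpk and hnrnph1) in July to September against January to March, against 0, which stayed 0 with any 1 left out. Of all 16493 genes tested, 1987, 1956 and 546 passed in these 3 settings, against 0. Fits on separate libraries and those with the replicate block count the 2 libraries of a date as independent. Replicate numbers did not pair the libraries: over 276 pairs of dates, same-numbered libraries correlated at -0.11 to 0.14 in their deviations, with a median of 0.01. For pairs of copies, 9 differed, 7 to 11 with 1 left out, and 0 from July 2016 on, where 5 and 3 dates gave no adjusted p under 0.0625.

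Some signs turned. In September to November against March to May the difference was -0.052 for cirbp, -0.031 for LOC101162379 and 0.099 for hnrnpll. For LOC101162379 the year difference was 0.036 under quantile normalization, 0.047 under median ratio scaling, 0.026 in October to June pairs, and -0.072 to 0.043 with 1 left out. The summer to winter difference of sf3b1 was -0.0075 under median ratio scaling and -0.013 between July to September and January to March, and -0.0021 to 0.0945 with 1 left out, and that of LOC101163177 was -0.038 under median ratio scaling and -0.053 to 0.0742 with 1 left out. The year difference of rbms3 was -0.13 in July to September pairs. Ratios of copies ranged from -0.021 to 0.0797 for hnRNP K and from -0.025 to 0.12 for srsf1 with 1 left out. Of 64 results for named genes, 30 kept direction and call under all alternatives, and for the other 34 the cause was not tested. Absolute depth is unknown, so no counting error is given.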

Other observations

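The 34 genes that were higher in June to August have a median of 5.5 transcripts listed per gene, and 4 of them have 1. The 16 that were lower have a median of 2, and 5 of them have 1. The 21 that did not pass have a median of 3, and 7 of them have 1. These are descriptions of the deposited table, without a test. Like values were not computed for all genes tested or within each family, so they are not shown to be particular to these genes.

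The following 4 genes stood at unlike levels in April 2017 and April 2016. Sampling fell on 16 March and 20 April in 2017, against 23 March and 26 April in 2016. The srsf3 copy LOC101167349 stood at 15.2 FPKM in March, 20.9 in April and 46.0 in May 2017, against 19.2 in March and 35.5 FPKM in April 2016. The gene hnrnpll stood at 75.0, 67.2 and 25.6 FPKM in March, April and May 2017, against 83.1 and 37.4 FPKM in March and April 2016. For rbmx the levels were 33.5, 34.6 and 55.3 FPKM in March, April and May 2017, against 29.1 and 50.6 FPKM in March and April 2016. The CLK2 copy LOC101161565 stood at 231, 271 and 196 FPKM in March, April and May 2017, against 279 and 167 FPKM in March and April 2016. These genes were picked after their values were seen, and the difference between the springs was not tested.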
